A study of Mus musculus with 9 samples.

Results

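The Schlafen family was followed through 9 RNA-seq libraries of mouse spinal cord taken on day 7. Its 5 members here, Slfn1, Slfn2, Slfn5, Slfn8 and Slfn9, are the rows of the count and FPKM tables that carry those gene names, 5 of 34745 genes. They were selected on their levels in these same 9 libraries, so their group differences, and the counts of members that pass a test, are given as descriptions and not as evidence. All 5 passed the filter on low counts, which 17901 genes passed. The HBO group is labelled with hyperbaric oxygen, breathing of oxygen under raised pressure, and the design places it after a spinal cord injury. The SCI group had the injury and no such treatment, and the sham group is titled as a control and labelled as having no injury. Each group has 3 libraries, numbered replicate 1 to 3. With the SCI and sham libraries alone, 4 members passed the filter and Slfn1 did not, so Slfn1 was tested through its HBO counts. All animals were wild-type C57BL/6 mice of 7 to 9 weeks, and the labels list no engineered allele for any group. The sources used here do not give the injury level, the oxygen pressure or the number of sessions.

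Schlafen proteins share a core domain near the amino terminus that is related to nucleases, and several family members bind or cut transfer RNA. The short mouse members, Slfn1 and Slfn2, hold little beyond the core, whereas the long members, Slfn5, Slfn8 and Slfn9, add a helicase-like domain at the carboxy terminus. The family was first described in developing T cells, where it was tied to growth arrest and quiescence, and many of its genes are switched on by type I interferon. In an injured cord such transcripts can come from resident glia, from vessels and from blood cells that have entered the tissue. In whole tissue, fewer cells of a type and less RNA per cell cannot be told apart.

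The members lie side by side on mouse chromosome 11 of GRCm38. In the deposited coordinates Slfn5 spans chr11:82951349-82962941, Slfn9 chr11:82979629-82991830, Slfn8 chr11:83002158-83020810, Slfn2 chr11:83065112-83070678 and Slfn1 chr11:83116849-83122670. Slfn5, Slfn2 and Slfn1 are on the plus strand, and Slfn9 and Slfn8 are on the minus strand. Because interferon acts on such genes through short promoter elements, the 250 bases before each start in RefSeq (GRCm38.p6), in which all 5 members were found, were searched on both strands for GAAANNGAAA, the letters of the interferon-stimulated response element. The letters, or their reverse complement TTTCNNTTTC, stand in the upstream sequences of Slfn5, Slfn9 and Slfn8. These sequences are shown 5′ to 3′ on the strand of the gene, with the match in capitals.
Slfn5 chr11:82951852-82952101, plus strand: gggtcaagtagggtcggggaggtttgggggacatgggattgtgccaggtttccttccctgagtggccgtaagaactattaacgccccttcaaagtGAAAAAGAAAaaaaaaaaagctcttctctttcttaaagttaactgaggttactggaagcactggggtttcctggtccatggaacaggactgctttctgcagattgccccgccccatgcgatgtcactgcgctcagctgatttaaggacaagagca
Slfn9 chr11:82991831-82992080, minus strand: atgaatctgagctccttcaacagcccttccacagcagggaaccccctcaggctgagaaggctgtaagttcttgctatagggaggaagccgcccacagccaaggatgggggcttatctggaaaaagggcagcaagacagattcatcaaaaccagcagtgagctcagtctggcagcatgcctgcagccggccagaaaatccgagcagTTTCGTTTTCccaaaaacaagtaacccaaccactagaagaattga
Slfn8 chr11:83020811-83021060, minus strand: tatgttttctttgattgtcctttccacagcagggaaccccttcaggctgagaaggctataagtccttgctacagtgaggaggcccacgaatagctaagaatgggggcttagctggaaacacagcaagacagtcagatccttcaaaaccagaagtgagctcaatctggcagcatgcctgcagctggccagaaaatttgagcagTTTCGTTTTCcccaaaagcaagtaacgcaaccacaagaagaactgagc
The RefSeq start of Slfn5 lies inside the span that the deposited coordinates give the gene. Between the match and the start lie 145 bases in Slfn5, 35 in Slfn9 and 38 in Slfn8. Slfn9 and Slfn8 hold the same 10 letters, TTTCGTTTTC, and their upstream sequences are 85.1% identical over 242 aligned bases with 16 gaps. RefSeq gives Slfn8 a second start, with 126 bases between the same letters and that start. The windows of Slfn2 and Slfn1 do not hold these letters, and they are shown so that the short members can be set beside the long ones.
Slfn2 chr11:83064862-83065111, plus strand: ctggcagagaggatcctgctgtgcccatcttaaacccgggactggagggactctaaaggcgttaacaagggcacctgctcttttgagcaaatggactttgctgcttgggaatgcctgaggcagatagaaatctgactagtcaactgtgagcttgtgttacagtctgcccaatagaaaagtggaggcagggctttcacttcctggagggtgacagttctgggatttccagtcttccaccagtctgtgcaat
Slfn1 chr11:83116570-83116819, plus strand: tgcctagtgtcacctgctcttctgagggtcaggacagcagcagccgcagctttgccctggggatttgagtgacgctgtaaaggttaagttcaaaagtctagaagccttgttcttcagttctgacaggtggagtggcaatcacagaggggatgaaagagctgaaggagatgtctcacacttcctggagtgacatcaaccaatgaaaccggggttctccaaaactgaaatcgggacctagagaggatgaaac
Among all genes with such a window, 936 of 27025 (3.46%) held the letters of this element. In the list of 24 interferon-stimulated genes described later, 16 genes had a window and 6 of them held the letters, which were Bst2, Ifit1, Ifit3, Isg15, Oas1a and Rsad2. The gamma-activated site, searched as TTCNNNGAA, was in none of the 5 members' windows and in those of 2197 of the 27025 genes (8.13%). A match is a run of letters and was not measured as a bound site.

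Slfn8 and Slfn9 are near-identical copies, which limits how well their reads can be told apart. Their coding sequences in the GENCODE M21 annotation have 2730 bases each and match at 2531 of them (92.7%). Slfn5 is 62.6% identical to Slfn8 over aligned coding bases, and Slfn1 is 71.9% identical to Slfn2. Of all 50-base windows in its transcripts, 14.6% of those of Slfn8 and 11.9% of those of Slfn9 also occur in another gene, mainly in each other and in the pseudogene Slfn10-ps. The share falls to 3.4% and 3.7% for 100-base windows. In M21 the exons cover 4091 bases for Slfn8, 5965 for Slfn9 and 3621 for Slfn10-ps. The lengths implied by the deposited counts and FPKM are 6250, 6662 and 5435 bp, so part of the counted sequence was not searched. Slfn5 shares 8.8% of its exon bases with Slfn5os, an antisense gene without a single count in any library. Slfn2 shares 4.3% and Slfn1 0.6% of their 50-base windows. The sources used here do not state read length, strand setting or the handling of reads with several matches, so Slfn8, Slfn9 and Slfn10-ps are uncertain as single genes.

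The libraries held 11159587 to 15715484 counts in genes. HBO replicate 3 had 6.55% of its counts on mitochondrial transcripts, against 2.97% to 4.07% in the other libraries. SCI replicate 1 stood apart by skeletal muscle and erythroid genes. Hox genes of the spinal axis were present in all libraries, with summed levels of 306 to 319 CPM (counts scaled to a common library size) in HBO, 287 to 341 CPM in SCI and 381 to 435 CPM in sham. Neuron markers summed to 2170 to 4320 CPM in HBO, 2010 to 3300 CPM in SCI and 5440 to 6780 CPM in sham. Whether each library is a separate animal is not stated in the labels, so every p-value here covers only the spread between these samples. CPM were computed from the deposited counts on scaled library sizes, and fold changes are edgeR estimates, given on the log2 scale ± SE from 1 fit to all 9 libraries.

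Slfn2 is a short member, known from mice whose T cells and myeloid cells fail to stay quiescent without it, and it shields transfer RNA from the ribonuclease angiogenin in T cells. Its level was 15.7, 26.9 and 45.1 CPM in HBO replicates 1 to 3, 18.7, 15.2 and 12.2 CPM in SCI, and 6.7, 3.43 and 5.33 CPM in sham. Every injured library, with or without oxygen, lay above every sham library, while HBO replicate 1 lay inside the SCI range and the other HBO libraries above it. Its log2 fold change was 0.92 ± 0.35 for HBO vs SCI, 1.57 ± 0.37 for SCI vs sham and 2.49 ± 0.38 for HBO vs sham. The last value corresponds to a 5.64-fold higher level.

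Slfn1, the other short member, which arrests the growth of T cells when overexpressed, was scarce. It had 24, 41 and 151 counts in HBO, 13, 25 and 6 counts in SCI, and 9, 5 and 8 counts in sham. As levels these were 1.7, 3.17 and 12.5 CPM in HBO, 0.848, 1.73 and 0.432 CPM in SCI, and 0.718, 0.44 and 0.592 CPM in sham. HBO replicate 3 held most of the group's counts, HBO replicate 1 lay just under the highest SCI library, and SCI overlapped sham. The log2 fold change was 2.5 ± 0.71 for HBO vs SCI, 0.77 ± 0.86 for SCI vs sham and 3.27 ± 0.78 for HBO vs sham. The estimate depended on single libraries. Without HBO replicate 3 it was 1.26 for HBO vs SCI and 2.03 for HBO vs sham, and without SCI replicate 2 it was 0.14 for SCI vs sham.

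Slfn5 is a long member whose human counterpart acts in the nucleus and restrains transcription of interferon-induced genes. Its level was 42.2, 73.1 and 117 CPM in HBO, 37.5, 39.3 and 29 CPM in SCI, and 19.3, 15.2 and 19.4 CPM in sham. The 3 groups formed 3 separate ranges, HBO above SCI and SCI above sham, although HBO replicate 1 exceeded the highest SCI library by little. The log2 fold change was 1.14 ± 0.3 for HBO vs SCI, 0.97 ± 0.31 for SCI vs sham and 2.11 ± 0.31 for HBO vs sham. These are 2.2-fold, 1.96-fold and 4.3-fold.

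Slfn8 is a long member with the helicase-like domain. It was measured at 19.5, 36.8 and 65.6 CPM in HBO, 15.9, 15.8 and 11.8 CPM in SCI, and 7.58, 8.1 and 8 CPM in sham. As with Slfn5, the 3 groups did not overlap, and the sham libraries lay close together. The log2 fold change was 1.48 ± 0.35 for HBO vs SCI, the largest of the 5 after that of Slfn1, 0.88 ± 0.36 for SCI vs sham and 2.36 ± 0.36 for HBO vs sham.

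Slfn9, the near-copy of Slfn8, had a larger value in the injury contrast than in the oxygen contrast. Its level was 10.3, 18.3 and 32.3 CPM in HBO, 16.1, 12.8 and 9.36 CPM in SCI, and 4.55, 4.4 and 3.92 CPM in sham. HBO replicate 1 lay inside the SCI range, and every SCI and HBO library lay above every sham library. The log2 fold change was 0.67 ± 0.35 for HBO vs SCI, the smallest of the 5, and 1.57 ± 0.38 for SCI vs sham, as large as that of Slfn2. For HBO vs sham it was 2.24 ± 0.38. Without HBO replicate 3 the HBO vs SCI value was 0.17.

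**Figure D1:**
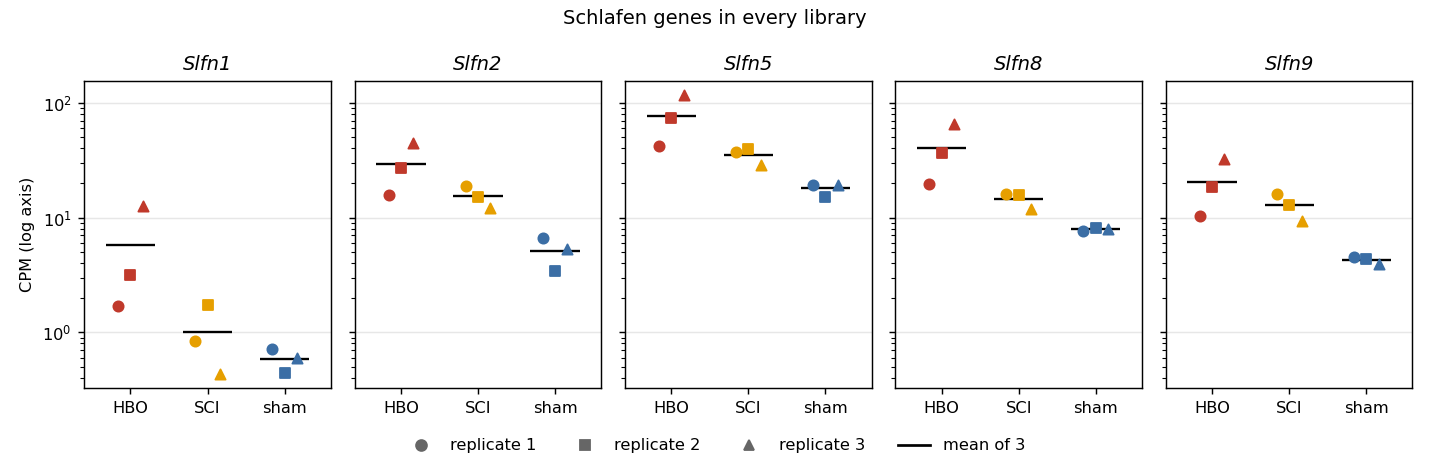
Level of each Schlafen member (CPM on TMM-scaled library sizes, log axis) in each library of the HBO, SCI and sham groups, with bars at the group means. HBO replicate 3 has the highest value of all 9 libraries for each member, 117 CPM for Slfn5 and 12.5 CPM for Slfn1, and the Slfn5 and Slfn8 groups do not overlap.

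Per transcript length, Slfn2 and Slfn5 were the leading members throughout. In FPKM, which divides by gene length, HBO libraries averaged 17.4 ± 8.46 for Slfn2, 13.5 ± 6.33 for Slfn5, 6.42 ± 3.56 for Slfn8, 3.05 ± 3.02 for Slfn1 and 3.02 ± 1.59 for Slfn9 (SD, n = 3). The ranges of neighbours in this order overlapped, as the HBO libraries differed among themselves, but within each of the 3 libraries Slfn2 was above Slfn5 and Slfn5 above Slfn8. Slfn1 was above Slfn9 in 1 HBO library only, replicate 3.
In SCI the FPKM were 9.18 ± 1.79 for Slfn2, 6.19 ± 0.919 for Slfn5, 2.31 ± 0.346 for Slfn8, 1.9 ± 0.465 for Slfn9 and 0.538 ± 0.359 for Slfn1 (SD, n = 3). Only Slfn8 and Slfn9 had ranges that overlapped. In sham the FPKM were 3.18 ± 0.388 for Slfn5, 3.1 ± 0.958 for Slfn2, 1.27 ± 0.0571 for Slfn8, 0.647 ± 0.05 for Slfn9 and 0.314 ± 0.0716 for Slfn1 (SD, n = 3), and only Slfn5 and Slfn2 overlapped. Slfn2 made up 40.7% ± 1.69 of the family's summed FPKM in HBO, 45.6% ± 2.91 in SCI and 35.9% ± 5.92 in sham (SD, n = 3).

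Slfn8 and Slfn9 were in unequal proportion across the groups, and a ratio of their counts within a library does not depend on library scaling. Their gene lengths, as implied by count and FPKM, are 6250 and 6662 bp. The count of Slfn8 divided by that of Slfn9 was 1.88, 2 and 2.03 in HBO, 0.988, 1.23 and 1.26 in SCI, and 1.67, 1.84 and 2.04 in sham. The SCI ratios lay below all HBO and sham ratios, which overlapped each other. In counts, Slfn8 and Slfn9 had 275 and 146 in HBO replicate 1, 475 and 237 in replicate 2 and 793 and 391 in replicate 3. The SCI libraries had 243 and 246, 228 and 185, and 164 and 130. The sham libraries had 95 and 57, 92 and 50, and 108 and 53. Slfn8 thus had more counts than Slfn9 in every library except SCI replicate 1. As a share of both, Slfn8 took 65.3% (95% exact binomial interval 60.6% to 69.9%), 66.7% (63.1% to 70.2%) and 67% (64.2% to 69.7%) in HBO. It took 49.7% (45.2% to 54.2%), 55.2% (50.3% to 60.1%) and 55.8% (49.9% to 61.5%) in SCI, and 62.5% (54.3% to 70.2%), 64.8% (56.3% to 72.6%) and 67.1% (59.2% to 74.3%) in sham. The intervals cover counting error only, and reads that match both genes may have been assigned to either. With both counts added as 1 gene, the log2 fold change was 1.16 ± 0.34 for HBO vs SCI, 1.16 ± 0.353 for SCI vs sham and 2.32 ± 0.359 for HBO vs sham.

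**Figure D2:**
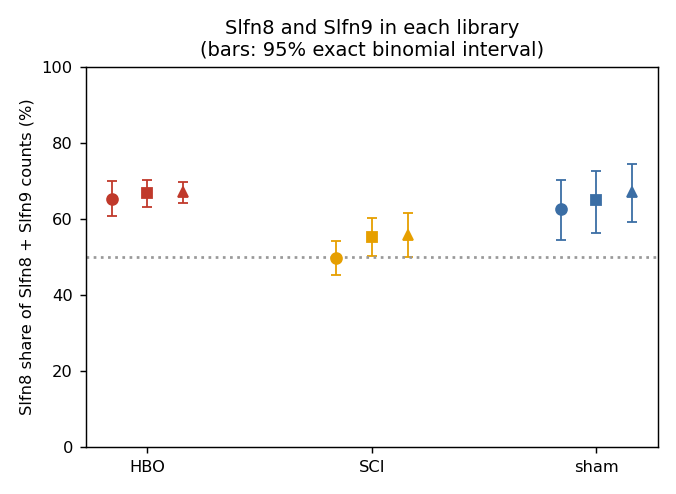
Slfn8 counts as a percentage of Slfn8 plus Slfn9 counts in each library, with 95% exact binomial intervals, for HBO, SCI and sham. The 3 SCI libraries sit between 49.7% and 55.8%, below all HBO and sham libraries, which sit between 62.5% and 67.1%.

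Against untreated injury, all 5 members had a higher mean in HBO, with log2 fold changes from 0.67 to 2.5 and a median of 1.14, where the median over all genes tested was 0.0. A positive log2 fold change was found for 49.5% of genes. For Slfn5 and Slfn8, 2 of the 5, every HBO library lay above every SCI library, as it did for 3.96% of genes. The quasi-likelihood test of edgeR called 0 of the 5 members and 0% of genes at an adjusted p under 0.05. At an unadjusted p under 0.05 the counts were 4 of 5 members and 4.18% of genes, and DESeq2 called 1 member, Slfn8, and 0.145% of genes. Nothing is read from these counts, nor from those of the other 2 contrasts, since the members were selected with these values known. HBO replicate 3 carried much of the difference. Without it the log2 fold changes were 1.26 for Slfn1, 0.47 for Slfn2, 0.71 for Slfn5, 0.95 for Slfn8 and 0.17 for Slfn9.

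In SCI vs sham, which sets injury beside no injury, all 5 members were higher in SCI, with log2 fold changes from 0.77 to 1.57 and a median of 0.97 beside 0.0 for all genes. For all but Slfn1, 4 of 5, every SCI library lay above every sham library, which held for 27.6% of genes. The edgeR test called 3 members, Slfn2, Slfn5 and Slfn9, beside 36.6% of genes in either direction and 20% in the upward one. DESeq2 called 4 members, adding Slfn8, beside 38.8% of genes. Slfn5 was no longer called when SCI replicate 1 or 2 or any 1 of the sham replicates was left out. In HBO vs sham every member had every HBO library above every sham library, 5 of 5 beside 24.2% of genes. The log2 fold changes ran from 2.11 to 3.27 with a median of 2.36, and edgeR called 5 of 5 beside 30.9% of genes in either direction and 17.4% in the upward one. DESeq2 called 5 of 5 beside 33.9% of genes. Slfn1, one of the 5, passed the filter on low counts only with the HBO libraries, where its mean was highest. The HBO vs SCI and SCI vs sham values share the SCI libraries, and the HBO vs sham values share libraries with both.

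**Figure D3:**
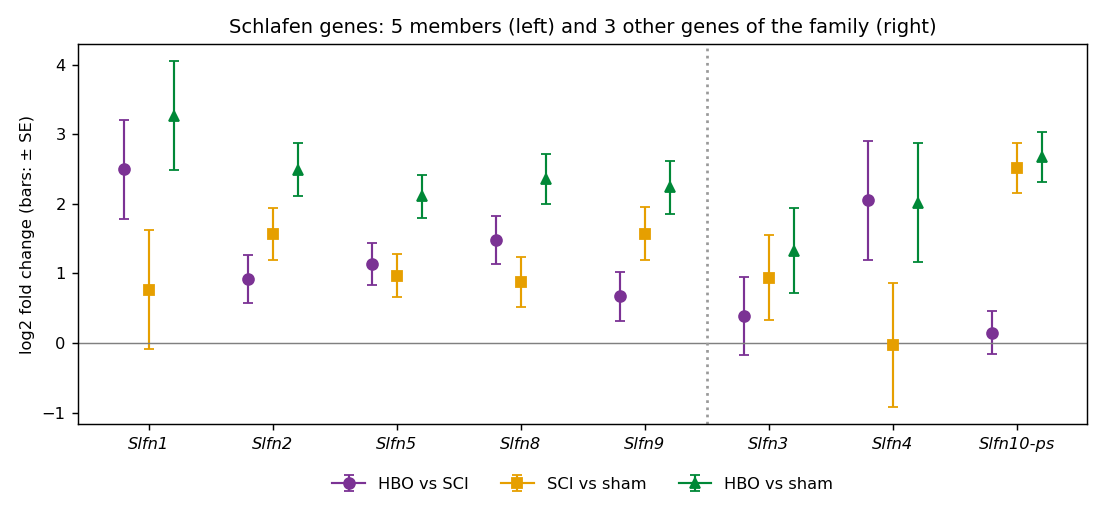
Log2 fold changes with SE from the edgeR fit for the 5 members and for the other Schlafen genes tested, in HBO vs SCI, SCI vs sham and HBO vs sham (Slfn14, with 0 counts in sham, is left out). Slfn9 and Slfn2 have the largest SCI vs sham values of the 5 members, 1.57 each, and Slfn1 and Slfn8 have the largest HBO vs SCI values, 2.5 and 1.48.

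Summed over the 5 members, the family reached 89.3, 158 and 273 CPM in HBO, 88.9, 84.9 and 62.8 CPM in SCI, and 38.9, 31.6 and 37.2 CPM in sham. The mean was 173 ± 92.8 CPM in HBO, 78.9 ± 14.1 CPM in SCI and 35.9 ± 3.82 CPM in sham (SD, n = 3 each). HBO replicate 1 was level with SCI replicate 1, and HBO replicate 3 was the highest by far. Across the 9 libraries, log2 CPM of the members correlated in pairs with r from 0.825 for Slfn1 and Slfn9 to 0.988 for Slfn5 and Slfn8. These values describe 9 libraries in 3 groups that differ in level, so the group differences enter every r.

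The other Schlafen genes of the files did not all follow the members. Of 6, 4 passed the filter. Slfn10-ps, a pseudogene between Slfn8 and Slfn2, was at 4.46, 7.59 and 6.37 CPM in HBO, 7.63, 4.3 and 4.61 CPM in SCI, and 0.638, 0.88 and 1.33 CPM in sham. It rose in both injured groups, whose ranges overlapped. Its log2 fold change was 2.52 ± 0.36 for SCI vs sham (edgeR adjusted p = 0.00102), 2.67 ± 0.36 for HBO vs sham (edgeR adjusted p = 0.00105) and 0.15 ± 0.31 for HBO vs SCI (edgeR adjusted p = 0.974). With 8, 10 and 18 counts in sham, it passed the filter on low counts through the injured libraries. Its calls are thus descriptions and not evidence. Its highest count, 117, was in SCI replicate 1, where Slfn9 also had its highest count outside HBO. It shares 19.7% of its 50-base windows with Slfn8 and Slfn9, and a transfer of reads among them was not tested.

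Slfn14, whose human counterpart binds ribosomes and is needed for normal platelets, had 8, 9 and 25 counts in HBO, 15, 11 and 3 in SCI and 0 in each sham library. Against a floor of 3 counts over the sham group, its level was at least 13.4-fold higher in HBO and at least 8.29-fold higher in SCI. These bounds allow for counting error in sham only, not for the spread of the injured counts. The edgeR adjusted p were 0.00939 and 0.0155. Slfn14 passed the filter on low counts through the injured libraries alone, so its calls are descriptions and not evidence. HBO replicate 3 held 25 of the 42 HBO counts, and without it the HBO bound was 7.83-fold. Without sham replicate 3 the bounds were 8.55-fold for HBO and 5.29-fold for SCI, without sham replicate 1 they were 8.9-fold and 5.51-fold, and edgeR called Slfn14 without each library in turn. Erythroid markers, a list of 7, summed to 313, 244 and 344 CPM in HBO, 1320, 420 and 331 CPM in SCI, and 177, 168 and 229 CPM in sham. Their part in the Slfn14 counts was not tested. Slfn4, known from macrophages and other myeloid cells, varied widely within groups, at 7.29, 8.36 and 38.7 CPM in HBO, 3.59, 7.97 and 1.44 CPM in SCI, and 9.49, 0.88 and 2.89 CPM in sham. Its log2 fold change was 2.05 ± 0.86 for HBO vs SCI (edgeR adjusted p = 0.959), and its high library was again HBO replicate 3. Slfn3, a 92.7% coding match to Slfn4, was at 0.39 ± 0.56 for HBO vs SCI and 0.94 ± 0.61 for SCI vs sham (edgeR adjusted p of 0.963 and 0.256). Slfnl1, on chromosome 4, had 3 to 15 counts a library and was not tested.

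The genes around the cluster were measured to see whether the whole stretch of chromosome 11 moved. Within 300 kb of a member lie 17 genes whose symbols do not start with Slfn, of which 13 passed the filter. Gm11427, which did not pass, shares transcript windows with Slfn1, Slfn3 and Slfn4. For HBO vs SCI their median log2 fold change was 0.11. Of the 13, 0 were called by edgeR and 0 by DESeq2, and 0 had an unadjusted p under 0.05, beside 4.18% of all genes. For SCI vs sham 1 of 13 was called, beside 36.6% of all genes, and the median was -0.02. The gene called was AI662270, which rose by a log2 fold change of 1.92 ± 0.37 (edgeR adjusted p = 0.0037). AI662270, which lies between Slfn3 and Slfn14, also rose in HBO vs sham, by 2.34 ± 0.37 (edgeR adjusted p = 0.00193), where the median was -0.05. Rad51d, which encodes a DNA repair protein and lies before Slfn5, was at 21.3 ± 1.3 CPM in HBO, 19.5 ± 1.96 CPM in SCI and 22.4 ± 1.1 CPM in sham (SD, n = 3 each). Ap2b1, an adaptor protein gene beyond Slfn14, was at 266 ± 6.92 CPM in HBO, 252 ± 16.8 CPM in SCI and 294 ± 18.7 CPM in sham (SD, n = 3 each).

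**Figure D4:**
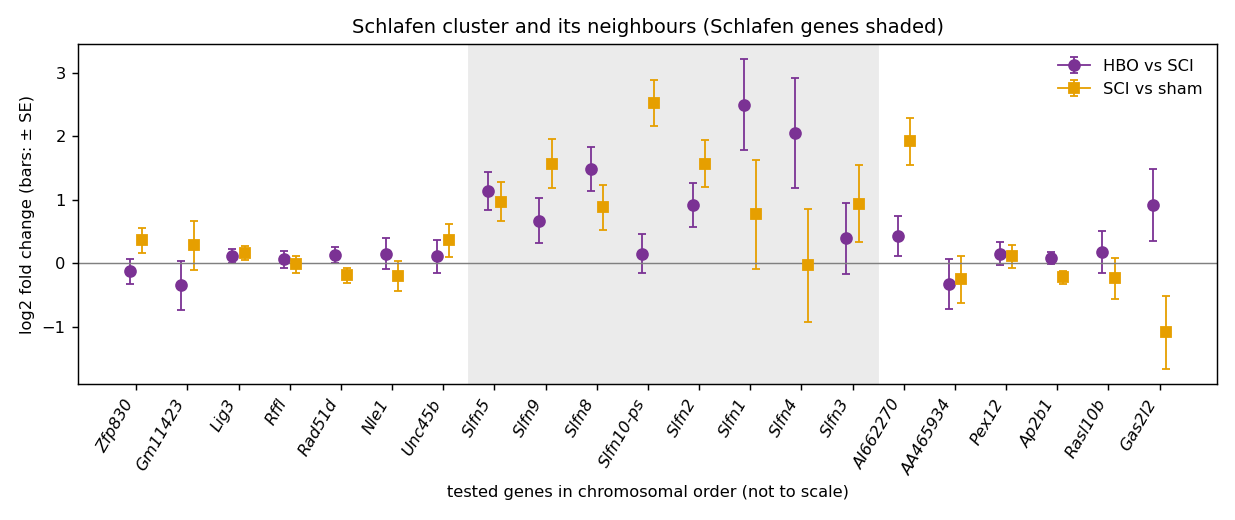
Log2 fold changes of the Schlafen genes and of the neighbouring genes tested, placed in their order along chromosome 11 (order, not distance), for HBO vs SCI and SCI vs sham, with bars of ± SE (Slfn14 is left out). The 5 members lie between 0.67 and 2.5 in both contrasts, while the neighbours have medians of 0.11 for HBO vs SCI and -0.02 for SCI vs sham, with AI662270 at 1.92 for SCI vs sham.

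The interferon pathway upstream of the family was read from its ligands to its targets. Of 10 interferon genes listed, 0 passed the filter. Ifnb1 and 7 others had no count in any library, which allows up to 0.025 CPM over the 9 libraries, and Ifng had 2 counts in HBO replicate 1 and Ifna4 had 1 count in SCI replicate 1. Of 16 receptor and signalling genes, 9 rose and 0 fell in SCI vs sham, beside 20% and 16.6% of all genes. Their median log2 fold change was 0.65. The receptor chains rose, Ifnar2 by 1.32 ± 0.18 (edgeR adjusted p = 0.000881), Ifngr1 by 1.19 ± 0.17 (edgeR adjusted p = 0.000994) and Ifnar1 by 0.66 ± 0.15 (edgeR adjusted p = 0.0069). Irf9, a transcription factor of the interferon response, rose by 0.66 ± 0.19 (edgeR adjusted p = 0.0235), a call lost without SCI replicate 1 or 2 or sham replicate 2 or 3 (edgeR adjusted p of 0.0579 to 0.0823). Stat2, which works with it, was at 0.14 ± 0.26 and did not pass.

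For HBO vs SCI the median over the 16 genes was 0.02. Ifnar1, Ifnar2 and Ifngr1 were at log2 fold changes of -0.02 ± 0.15, 0.02 ± 0.18 and 0.02 ± 0.17. The kinases Jak1 and Tyk2 were at 0.02 ± 0.1 and -0.09 ± 0.13, and the inhibitors Socs1 and Socs3 were at -0.43 ± 0.56 and -0.32 ± 0.32. For Stat2, Irf9, Irf7 and Usp18, the last a feedback inhibitor of the receptor, every HBO library lay above every SCI library. Stat2 averaged 92.4 ± 38.4 CPM in HBO and 48.4 ± 8.05 CPM in SCI, and Irf7 averaged 28.8 ± 15.8 CPM in HBO and 8.62 ± 2.42 CPM in SCI (SD, n = 3 each). The log2 fold changes were 0.93 ± 0.26 for Stat2, 0.64 ± 0.19 for Irf9, 1.74 ± 0.37 for Irf7 and 1.75 ± 0.36 for Usp18. By edgeR 0 of the 16 passed at an adjusted p under 0.05. An unadjusted p under 0.05 was found for 5, beside 4.18% of all genes, and DESeq2 called 2, beside 0.145%. In HBO vs sham 13 of the 16 rose, beside 17.4% of all genes, with a median of 1.09.

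The 24 interferon-stimulated genes, a list of known interferon targets, had higher values in HBO than in SCI as the members did. In HBO vs SCI all 24 had a positive log2 fold change, the median was 1.22, and in 20 every HBO library lay above every SCI library, beside 3.96% of all genes. By edgeR 0 of 24 passed at an adjusted p under 0.05. An unadjusted p under 0.05 was found for 23, beside 4.18% of all genes, and DESeq2 called 6, beside 0.145%. Nothing is read from these counts, as the list was chosen with earlier results of these data known. The summed level was 1420 CPM in HBO replicate 3, and 539 and 780 CPM in HBO replicates 1 and 2. Oas2, a sensor of double-stranded RNA, averaged 24.7 ± 13.5 CPM in HBO and 5.82 ± 1.81 CPM in SCI, and Ifit1, which binds foreign RNA, averaged 51.6 ± 36 CPM in HBO and 12.1 ± 4.12 CPM in SCI (SD, n = 3 each). In SCI vs sham 6 of the 24 rose and 1 fell, beside 20% and 16.6% of all genes, with a median of 0.83. Bst2, which tethers budding virus particles to the cell, rose by 1.88 ± 0.3 (edgeR adjusted p = 0.00153), and Cmpk2, a mitochondrial nucleotide kinase, fell by 0.69 on the log2 scale (edgeR adjusted p = 0.0364). The Cmpk2 call was lost without any 1 SCI replicate or sham replicate 1 or 2 (edgeR adjusted p of 0.0678 to 0.132), and with the replicate block (edgeR adjusted p = 0.053). In HBO vs sham 23 rose, beside 17.4% of all genes, with a median of 2.0.

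The genes whose pattern was most like each member were taken by Pearson correlation of log2 CPM over the 9 libraries, among 12390 genes with a mean of 5 CPM or more. For Slfn5 they were Sp100 and Ly6e (r = 0.994 each), Irf9 (0.992), and Dhx58 and Trim30a (0.988 each). For Slfn8 they were Trim30a (0.995), Ddx58 and Dhx58 (0.992 each), and Sp100 and Ly6e (0.991 each), so 4 of the 5 names recur. The genes most like Slfn1 were Xaf1 (0.989), Phax (0.983), Gbp3 (0.981), Stat2 (0.98) and Oasl2 (0.978).
The genes most like Slfn2 were Helz2 (0.995), Samhd1 and Dhx8 (0.988 each), H2-T22 (0.987) and Bst2 (0.98). For Slfn9 they were Lgals9 (0.989), Zc3hav1 (0.987), Parp12 (0.985), Fcgr1 (0.984) and AI607873 (0.983), and none of these is among those of Slfn8. The mean of the 5 members was most like Sp100 (0.995) and Trim30a, Ly6e, Dtx3l and Rnf213 (0.992 each). Over the 6 injured libraries, after each group's mean was taken out, the 10 most like genes were Cwc22, Nbr1, Irgm2, Parp12, Rbm18, Mnda, Phax, Rnf213, Tspyl2 and Setd1a, with r from 0.992 to 0.996. The libraries share depth and tissue makeup, HBO replicate 3 is the highest library for every member, and with this many genes ranked over few libraries high values are found by the choice itself.

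The family's best known functions were also read from lists. Among 6 tested ribonucleases that cut or trim transfer RNA and their inhibitor, Ang, which encodes angiogenin, rose in SCI vs sham by 1.91 ± 0.33 (edgeR adjusted p = 0.00213), and Rnh1, its inhibitor, rose by 1.12 ± 0.19 (edgeR adjusted p = 0.00195). Elac1, a nuclease that processes transfer RNA ends, fell by 0.54 on the log2 scale (edgeR adjusted p = 0.00988). In HBO vs SCI Ang was at 9.42 ± 3.28 CPM in HBO and 9.69 ± 1.35 CPM in SCI (SD, n = 3 each). By edgeR 0 of the 6 passed in that contrast, 0 had an unadjusted p under 0.05 and DESeq2 called 0. Of 13 genes of lymphocyte quiescence, 6 rose and 1 fell in SCI vs sham, beside 20% and 16.6% of all genes. Those that rose included Runx1 at 2.02 ± 0.26 and Klf2 at 1.03 ± 0.24 (edgeR adjusted p of 0.000626 and 0.00865). These are values of whole cord, and whether they came from lymphocytes was not tested. In HBO vs SCI 0 of the 13 passed by edgeR, 0 at an unadjusted p under 0.05 and 0 by DESeq2.
Cell division genes summed to 202, 282 and 364 CPM in HBO, 490, 326 and 236 CPM in SCI, and 78.1, 93.1 and 95.9 CPM in sham. HBO and SCI overlapped, and SCI replicate 1 was the highest. All 15 rose in SCI vs sham, beside 20% of all genes, with a median log2 fold change of 1.96. Mki67, a marker of cycling cells, rose by 2.63 ± 0.4 (edgeR adjusted p = 0.00131). In HBO vs SCI 1 of the 15 had a positive value and the median was -0.41. By edgeR 0 passed, 2 had an unadjusted p under 0.05, beside 4.18% of all genes, and DESeq2 called 0.

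Markers of the cells that could bring these transcripts were summed per library. T and NK cell markers, the cells in which the family was first described, were scarce, with 4 of 15 passing the filter. Their sums were 7.71 to 10.4 CPM in HBO, 6.55 to 11.5 CPM in SCI and 6.78 to 8.29 CPM in sham, so the groups overlapped. Of the 4, Cd4, which myeloid cells can also express, rose in SCI vs sham by 2.46 ± 0.52 (edgeR adjusted p = 0.00513), while Trac and Lck were at -0.3 ± 0.33 and 0.2 ± 0.36. Cd4 averaged 0.341 ± 0.154 CPM in sham (SD) and passed the filter through the injured libraries, so its call is a description. B cell markers summed to 18.3 to 33.4 CPM in HBO, 20.1 to 29.9 CPM in SCI and 4.63 to 8.59 CPM in sham, and Cd22, which microglia also express, averaged 22.9 ± 8.08 CPM in HBO, 22.9 ± 5.25 CPM in SCI and 3.63 ± 2.09 CPM in sham (SD, n = 3 each). Of 8 B cell markers 3 were tested, and 2, Cd22 and Cd79b, rose in SCI vs sham, beside 20% of all genes. Cd79b, at 0.3 ± 0.133 CPM in sham (SD), also passed the filter through the injured libraries, so its call is a description. The call of Cd79b was lost without any 1 library of the contrast other than SCI replicate 3 (edgeR adjusted p of 0.0643 to 0.139). It was also lost with the replicate block (edgeR adjusted p = 0.0627) and by DESeq2 (adjusted p = 0.0888). The third marker, Pax5, went the other way without passing, at -0.43 ± 0.44 for SCI vs sham and -1.02 ± 0.47 for HBO vs sham. Every HBO library lay below every sham library for Pax5.
Myeloid markers moved with injury, in a contrast where 20% of all genes rose. Of 12 monocyte and macrophage markers 10 rose in SCI vs sham, and their sums were 2170, 4410 and 3350 CPM in HBO, 5630, 3990 and 3180 CPM in SCI, and 341, 405 and 624 CPM in sham. Fn1 and Lyz2 made up most of these sums. Their means were 1460 and 1630 CPM in HBO, 2100 and 1960 CPM in SCI, and 272 and 140 CPM in sham. The sums thus mainly follow these genes and not the markers as a set. Of 12 microglia markers 9 rose in SCI vs sham, with sums of 1620 to 1990 CPM in HBO, 1810 to 2240 CPM in SCI and 633 to 867 CPM in sham. Between HBO and SCI both lists overlapped, with median log2 fold changes of 0.03 and -0.12, and their part in the Schlafen levels was not tested.

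Neutrophil markers were high in the library that led the family. Their sums, over 12 genes, were 170, 133 and 465 CPM in HBO, 145, 151 and 105 CPM in SCI, and 141, 68.6 and 125 CPM in sham. HBO replicate 3 stood apart, while HBO replicate 2, with 158 CPM of Schlafen transcripts, lay inside the SCI range of the neutrophil sums. In HBO vs SCI all 11 neutrophil genes tested had a positive log2 fold change, with a median of 1.31, and Ngp, a neutrophil granule protein gene, averaged 41.6 ± 52.4 CPM in HBO and 10.5 ± 4.66 CPM in SCI (SD, n = 3 each). By edgeR 0 of 11 passed, 4 had an unadjusted p under 0.05, beside 4.18% of all genes, and DESeq2 called 0. Summed interferon-stimulated genes were 539, 780 and 1420 CPM in HBO, 418, 442 and 322 CPM in SCI, and 319, 237 and 250 CPM in sham. Within HBO they had the order of the Schlafen sums. So did cell division genes (202, 282 and 364 CPM) and the interferon receptor and signalling genes (836, 1010 and 1140 CPM). Nothing is read from an order over so few libraries. Skeletal muscle markers summed to 153, 46 and 40.2 CPM in HBO, 703, 125 and 44.3 CPM in SCI, and 89.6, 60.1 and 65.6 CPM in sham, high in SCI replicate 1, which also had the highest SCI values of Slfn2 and Slfn9. What part neutrophils, the mitochondrial share or the muscle signal have in the members' levels was not tested.

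**Figure D5:**
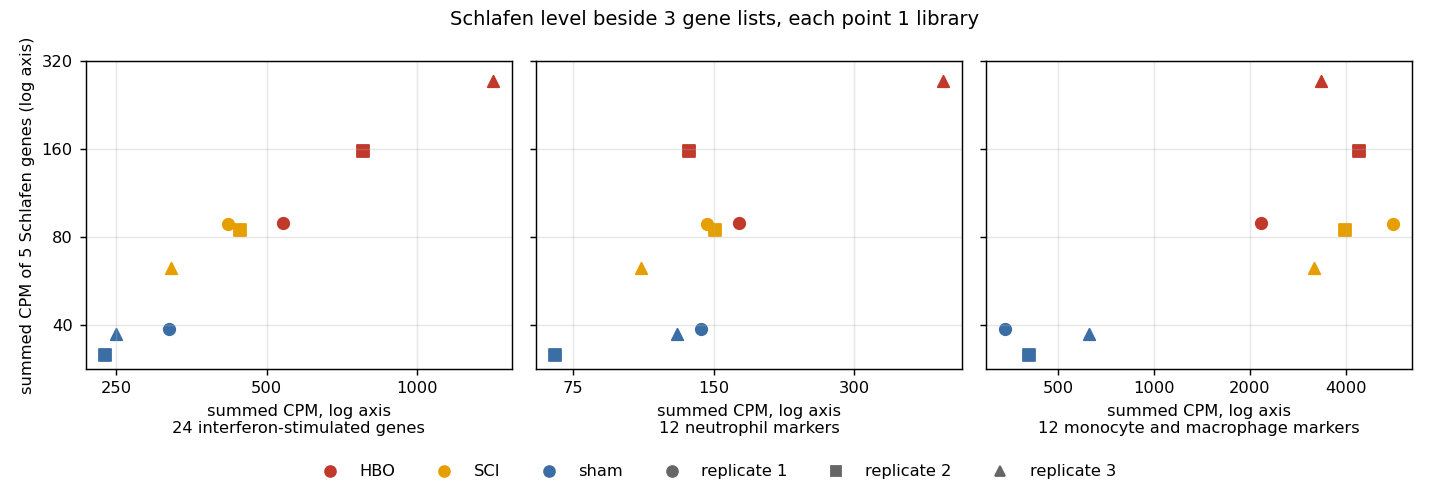
Summed level of the 5 Schlafen members (CPM, log axis) against the summed level (CPM, log axis) of interferon-stimulated genes, neutrophil markers, and monocyte and macrophage markers, 1 point per library. HBO replicate 3 has the highest Schlafen sum, 273 CPM, with 1420 CPM of interferon-stimulated genes and 465 CPM of neutrophil markers, while HBO replicate 2 has 158, 780 and 133 CPM. The monocyte and macrophage sum is mostly Fn1 and Lyz2.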

How the data were processed

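Whole spinal cord RNA was sequenced in 9 libraries, 3 per group. Per the labels' protocols, libraries were made from total RNA by a standard Illumina method. Per the submitters' processing notes, HISAT2 and GRCm38 (mm10) were used for alignment. The sources used here do not name the counting tool, annotation release or strand setting. The authors deposited, for 34745 genes, raw whole-number read counts and FPKM, scaled by library and gene length. Count and FPKM implied an equal gene length across libraries (relative spread at most 9.49e-05).

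The members and gene lists were chosen with earlier results of these data known. Counts were fitted in R 4.3.3 with edgeR 4.0.16 (filterByExpr, TMM, glmQLFit with 1 mean per group over 9 libraries, glmQLFTest), and calls were made at a Benjamini-Hochberg adjusted p under 0.05 across 17901 genes. The SE was taken from the log2 fold change and the F statistic. CPM are on TMM-scaled library sizes, and likeness used log2 CPM with a prior count of 2. FPKM served for levels between genes and, with 0.1 added and limma 3.58.1, for an alternative. DESeq2 1.42.0 was another. Slfn14 bounds without single libraries were added after the data were seen. Named genes are the members, other genes whose symbol starts with Slfn, neighbours within 300 kb, the 5 most like genes per member and for the family mean (10 within the injured groups), and up to 4 genes per list with the smallest p in a contrast. Ifnar1, Cmpk2 and the promoter matches of the interferon-stimulated list were named after their values were seen. Promoter sequences are from RefSeq on GRCm38.p6. Shared windows and coding identity come from GENCODE M21, which is not the authors' annotation: of 34267 gene IDs found there, 27686 had the same coordinates. The count test was tested on simulated data. Libraries of a group differed by more than counting noise.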

Additional observations from a re-analysis of the deposited data

How the results depend on the processing

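Of 185 alternative values of the members' log2 fold changes, 181 moved by less than the SD between replicates, 4 moved further, and 0 changed sign. In the HBO contrasts that SD includes the high HBO replicate 3, so large moves can fall under it. Without that library the HBO vs SCI value went from 0.67 to 0.17 for Slfn9 and from 0.92 to 0.47 for Slfn2. The 4 that moved further were Slfn1 without HBO replicate 3 (1.26 for HBO vs SCI and 2.03 for HBO vs sham) and Slfn8 and Slfn9 added together for SCI vs sham (1.16). For HBO vs SCI, DESeq2 called 26 genes and 1 member where edgeR called 0 of each, and leaving out 1 library at a time gave 0 to 4 genes. Leaving out 1 library gave 4316 (without SCI replicate 1) to 5913 genes for SCI vs sham, and 3053 (without sham replicate 1) to 5777 for HBO vs sham, with 3195 without HBO replicate 2. Of 34 calls of other named genes, in 340 alternative values, 6 were lost under some setting, those of Irf9, Cmpk2 and Cd79b in SCI vs sham and of Elac1, Rnh1 and Cd79b in HBO vs sham. RLE scaling moved the median of all genes by at most 0.007 in size.

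With the replicate block, 0 genes were called for HBO vs SCI, 5592 for SCI vs sham and 4459 for HBO vs sham. The numbers are not known to pair samples: deviations of same-numbered libraries correlated at -0.179 to 0.138, above 0.1 in 2 of 9 pairs, and a library correlated best with its own number in 3 of 18 cases.

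The main limits are 3 libraries per group, low counts of Slfn1 (5 to 25 counts in SCI and sham) and 1 HBO library that stands apart. A further limit is reads shared between Slfn8, Slfn9 and Slfn10-ps, or between Slfn3 and Slfn4.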
